A study of Homo sapiens with 20 samples.

Results

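Small nucleolar RNAs (snoRNAs) guide chemical modification and processing of ribosomal and other RNAs, and in human cells most of them are cut out of the introns of longer transcripts. C/D box snoRNAs guide methylation and H/ACA box snoRNAs guide pseudouridylation. The non-coding host genes carry snoRNAs in their introns, while their spliced exons encode no known protein and are in large part degraded by nonsense-mediated decay in the cytoplasm. The genes described here are GAS5, SNHG1, SNHG3, SNHG5, SNHG6, SNHG7, SNHG8, SNHG12, SNHG15 and SNHG16, which were taken from a list of 10 symbols and matched to the Ensembl ID that opens the name of each deposited peak. Of these 10 genes 9 had a peak, among 19362 gene IDs with a peak in the series, and the ID of SNHG8 (ENSG00000269893), which hosts SNORA24, was listed under no peak.

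The cells were TREX FLP-In 293T by their cell line label, while the titles of the RNA-seq samples write HEK293; both names stand for human embryonic kidney lines. In such a line a transgene is integrated at a fixed genomic site and switched on by tetracycline. Overexpression cells carried inducible T7-tagged hnRNPA1 on top of their own hnRNPA1, and control cells did not. Both were grown with tetracycline for 24 h, after 3 days of selection with blasticidin and either hygromycin (inducible lines) or zeocin (control cells). Individual-nucleotide resolution UV crosslinking and immunoprecipitation (iCLIP), which sequences RNA fragments crosslinked to an immunoprecipitated protein, was made from nuclear extracts. It was done for U2AF2 (3 overexpression and 3 control libraries), SRSF1 (3 and 3) and hnRNPA1 (2 and 2). U2AF2 binds pyrimidine-rich ends of introns, SRSF1 is an SR protein that binds purine-rich exonic elements, and hnRNPA1 is an abundant nuclear RNA-binding protein that can repress splicing. The question of the series is how the level of hnRNPA1 bears on where U2AF2 contacts RNA. The overexpression itself was not checked here, since the values used are peaks and exon inclusion.

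Reads in peaks numbered 2317615 to 3657197 in the U2AF2 overexpression libraries and 702563 to 1158060 in the U2AF2 control libraries. SRSF1 libraries held 175293 to 329448 reads with overexpression and 125082 to 173766 in control cells, and hnRNPA1 libraries held 549365 and 575471 with overexpression and 2508821 and 2973275 in control cells. Depth thus differed between the conditions, and only peaks of at least 6 reads were listed, except in U2AF2 overexpression replicate 3, which listed peaks from 3 reads and used versioned gene IDs and narrower peaks. A site with no listed peak may therefore still have been bound. The epithelial markers EPCAM, CDH1 and KRT8 had peaks in 11, 5 and 1 of the 16 libraries and KRT18 in 0. Of the blood-cell markers PTPRC, CD3E and HBB were at 0 in all libraries, while LYZ had peaks in 13 and gave 163 to 175 reads per 1000000 reads in peaks (RPM) in U2AF2 overexpression libraries against 19.9 to 44.7 in U2AF2 control libraries. The epithelial markers summed to 15.5 to 33.6 RPM in U2AF2 overexpression libraries and 39.7 to 58.7 RPM in U2AF2 control libraries. The part of either marker set in the results was not tested.

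Peaks of the host genes covered short stretches, with a median width per gene of 35.0 to 70.0 nt, and most lay over short gene entries listed inside the host genes. In hg19, the build of the files, they spanned chr1:173833071-173836870 (minus strand) at GAS5, chr11:62619485-62623087 (minus) at SNHG1, chr17:74554076-74560510 (plus) at SNHG16, chr6:86380536-86387768 (minus) at SNHG5 and chr8:67834294-67837236 (minus) at SNHG6. SNHG12 peaks spanned chr1:28905053-28907469 (minus), SNHG7 peaks chr9:139619096-139621279 (minus), SNHG3 peaks chr1:28832674-28837077 (plus) and SNHG15 peaks chr7:45022660-45026026 (minus). No annotation of that build was used, so exons and introns were not assigned. In all, 44429 reads in 727 peaks of the 16 libraries belonged to the 9 genes.

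The files also listed 33 short gene entries inside these genes. Of these 4 had a snoRNA name in the tables used here (SNORD1B in SNHG16, SNORD99 in SNHG12, SNORA73B in SNHG3 and SNORD87 in SNHG6), and the other entries have IDs in no name table used here and peaks confined to at most 300 nt. Those unnamed entries, which include every entry in GAS5 and SNHG1, are treated as snoRNA spans by this width alone, and whether each is a snoRNA was not tested. No host-gene peak had exactly the interval of such an entry in the same library, so removing intervals listed under both removed none. Peaks of a gene in all 16 libraries were therefore merged into 113 sites, and 32 of these overlapped the span of a short entry and are called sites over a snoRNA span. They held 85.6% of the host genes' reads. By gene the share was 96.2% in SNHG1, 91.5% in GAS5, 87.7% in SNHG5, 85.8% in SNHG6, 81.5% in SNHG16, 68.9% in SNHG12, 38.7% in SNHG7, 20.2% in SNHG3 and 0% in SNHG15. The share was 66.5% when a peak had to overlap a peak of a short entry in the same library. Reads and peaks of a site are those listed under the host gene. A short entry may have a peak of its own where the site has none.

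Of the snoRNAs that GENCODE v29 places inside these genes on GRCh38, a selection is shown, so that the kind of RNA they carry can be seen. That annotation places 0 inside GAS5, and those of SNHG7 are not shown. SNORD1B, SNORD99 and SNORA73B are also listed by name in the peak files, while the others were not matched to a site, because no coordinates were converted between builds. Capitals mark the C box (TGATGA, within 15 bases of the start) and the D box (CTGA, within 15 bases of the end), searched on the transcript strand. Both were found in 67.3% of 278 SNORD transcripts and in 0% of 147 SNORA transcripts of that annotation. SNHG16 holds SNORD1C, SNORD1B and SNORD1A, which are alike around the stretch agttatccctgtctgaa.
SNORD1C: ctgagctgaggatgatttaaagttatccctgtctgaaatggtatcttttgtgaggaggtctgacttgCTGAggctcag
SNORD1B: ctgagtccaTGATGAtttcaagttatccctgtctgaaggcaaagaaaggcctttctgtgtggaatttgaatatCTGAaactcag
SNORD1A: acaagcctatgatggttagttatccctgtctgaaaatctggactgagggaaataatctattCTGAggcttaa
SNORD99 of SNHG12 lies under the site of that gene with the most reads, and SNORD50B is the snoRNA of SNHG5 in that annotation.
SNORD99: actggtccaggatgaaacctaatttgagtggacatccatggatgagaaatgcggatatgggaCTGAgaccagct
SNORD50B: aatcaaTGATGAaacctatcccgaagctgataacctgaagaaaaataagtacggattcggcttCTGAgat
SNHG1 carries a row of C/D box snoRNAs, of which 3 with both boxes are shown. SNORD22, SNORD26 and SNORD28 of SNHG1, in which the C box as searched was not found, are left out.
SNORD25: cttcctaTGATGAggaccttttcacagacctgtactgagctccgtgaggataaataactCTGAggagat
SNORD27: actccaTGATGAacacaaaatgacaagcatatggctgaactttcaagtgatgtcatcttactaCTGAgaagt
SNORD30: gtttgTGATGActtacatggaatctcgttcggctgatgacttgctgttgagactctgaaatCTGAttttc
SNORA73B of SNHG3, an H/ACA box snoRNA, has neither box.
SNORA73B: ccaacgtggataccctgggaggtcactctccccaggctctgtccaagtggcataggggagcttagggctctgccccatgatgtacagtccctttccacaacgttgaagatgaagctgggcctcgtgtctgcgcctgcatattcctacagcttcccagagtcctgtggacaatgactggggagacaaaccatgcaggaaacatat

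U2AF2 reads on the non-coding hosts fell with hnRNPA1 overexpression. The 9 genes together held 1544, 1534 and 1882 reads in the deeper overexpression libraries, against 2915, 2776 and 3902 reads in control libraries. That was 572, 662 and 515 RPM with overexpression and 4149, 3544 and 3369 in control cells, so the groups did not overlap. Reads of a gene were scaled by a size factor per library (normalised reads), and limma was fitted to log2(normalised reads + 1) over 13007 genes. With Benjamini-Hochberg adjustment at 0.05, 8 of the 9 genes fell and 0 rose, while 16% of all genes tested were lower and 27.5% higher. The median log2 difference of the 9 was -3.28, against 0.76 over all genes tested. Peak reads depend on how much of a transcript is present and on how much of it is bound, which cannot be told apart here, nor can fewer cells and less RNA per cell.

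**Figure D1:**
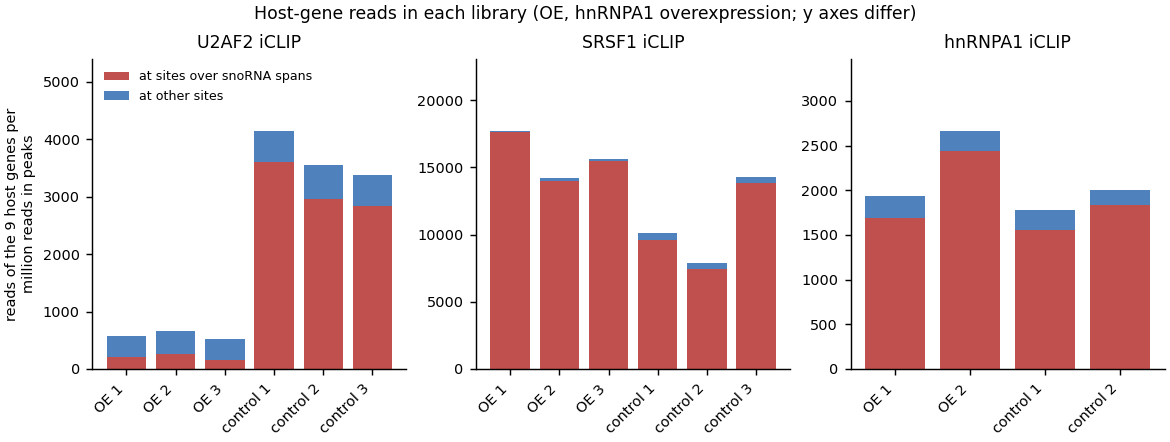
Reads of the 9 host genes in each library, in RPM, with overexpression libraries left of control libraries for each protein; red marks sites over snoRNA spans and blue all other sites. U2AF2 overexpression libraries lie between 515 and 662, below the control libraries at 3369 to 4149, and red fills most of each bar except in those 3 libraries.

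GAS5, a growth arrest-associated transcript whose RNA can bind the glucocorticoid receptor, had 143, 199.6 and 126 normalised U2AF2 reads with overexpression, against 3373, 3055 and 2525 in control cells. It fell by 4.27 ± 0.21 on the log2 scale (SE, adjusted p = 0.000205). SNHG1, the host of SNORD25, SNORD27 and SNORD30 among others, had 174, 179 and 112 normalised reads with overexpression and 2717, 2353 and 2231 in control cells, and fell by 3.99 ± 0.21 (adjusted p = 0.000205). In both genes every overexpression library lay more than 10 times below every control library. SNHG6, the host of SNORD87, had 8.98, 13.7 and 9.67 normalised reads with overexpression and 228, 191 and 141 in control cells, and likewise fell by 3.99 ± 0.32 (adjusted p = 0.000234).

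SNHG5 had 25.7, 41.7 and 33.7 normalised reads with overexpression and 295, 326 and 375 in control cells, and fell by 3.28 ± 0.22 (adjusted p = 0.000205). SNHG16 had 121, 132 and 121 normalised reads with overexpression and 1237, 1040 and 963 in control cells, and fell by 3.10 ± 0.13 (adjusted p = 0.000149). SNHG12, which also hosts the H/ACA box snoRNAs SNORA16A, SNORA44 and SNORA61, had 42.3, 51.8 and 44.6 with overexpression and 194, 135 and 144 in control cells, and fell by 1.73 ± 0.21 (adjusted p = 0.00113). The groups did not overlap in any of these 3 genes, and the fall of SNHG12 was the smallest of them.

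SNHG15, the host of SNORA9, rested on few reads, with 0, 6 and 24 reads in overexpression libraries and 21, 11 and 27 in control libraries, and fell by 3.77 ± 0.95 (adjusted p = 0.0225). Its call was lost without control replicate 1 or overexpression replicate 1 or 2 (adjusted p = 0.0508 to 0.0788). SNHG7, the host of SNORA17 genes, had 73.1, 81.8 and 68.3 normalised reads with overexpression and 147, 154 and 91.7 in control cells, and fell by 0.77 ± 0.25 (adjusted p = 0.0493). Without any 1 library other than control replicate 3 it missed the threshold, and with total reads in peaks as the scale its difference turned to 0.023. SNHG3, the host of SNORA73A and SNORA73B, had 73.1, 76.7 and 64.2 normalised reads with overexpression and 173, 66.2 and 109 in control cells, groups that overlapped (-0.59 ± 0.37, adjusted p = 0.237), and the difference was 0.20 with total reads as the scale. Without control replicate 2 the SNHG3 difference was -0.99 and passed (adjusted p = 0.0298). The 66 peaks of SNHG3 all overlapped a peak listed under RCC1 in the same library, with 100% of its 1742 reads, so reads of SNHG3 and RCC1 cannot be told apart.

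With total reads in peaks as the scale, the median over all genes moved to 1.49, 5482 of 13007 genes were higher and 1372 lower, and 7 of the 9 host genes still passed as lower. With a minimum of reads per peak that grew with depth, 8 of the 9 passed as lower. In that fit 1902 of 8876 genes were higher and 3022 lower, with a median of -0.04. When the number of peaks per gene was taken in place of reads, 3 passed.

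**Figure D2:**
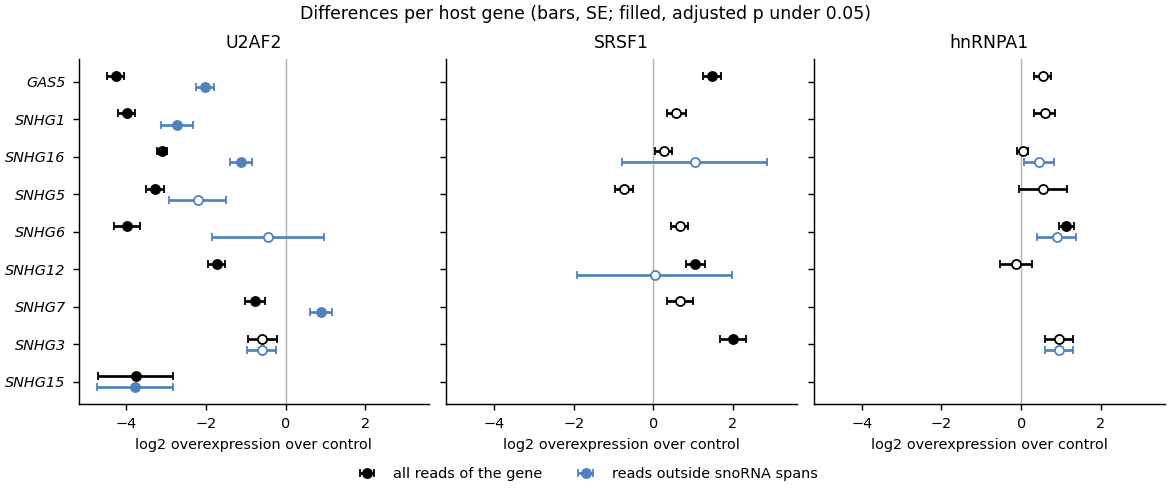
Log2 difference of normalised reads, overexpression over control, for each host gene and protein from all reads (black) and from reads outside snoRNA spans (blue); bars are SE, filled points passed the adjusted threshold, and genes whose groups were all at 0 on one side are left out. U2AF2 points run from -4.27 at GAS5 to -0.59 at SNHG3 for all reads, and the blue point of SNHG7 lies to the right of 0 at 0.89. The median over all genes was 0.76 in both U2AF2 fits.

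The fall was steeper at sites over snoRNA spans than outside them. Over the spans the 9 genes held 562, 611 and 592 reads in overexpression libraries, against 2525, 2316 and 3282 in control libraries. Outside the spans they held 982, 923 and 1290 reads with overexpression, against 390, 460 and 620 in control cells. Scaled to depth, the reads outside the spans were 364, 398 and 353 RPM with overexpression and 555, 587 and 535 RPM in control cells, so they too were lower in every overexpression library. The share of reads over spans was 36.4%, 39.8% and 31.5% in overexpression libraries (35.9% ± 4.21, SD, n = 3) and 86.6%, 83.4% and 84.1% in control libraries (84.7% ± 1.68, SD, n = 3). The 2 ranges lay far apart, with a difference of means of -48.8 percentage points. Among the protein-coding snoRNA hosts, mostly ribosomal protein genes, the same share was 20.5% ± 2.83 with overexpression and 61.6% ± 3.89 in control cells (SD, n = 3 each), which also did not overlap.

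In GAS5 the share over spans was 38.3%, 39.4% and 34.7% with overexpression and 89.4%, 83.9% and 86.8% in control cells. SNHG16 had 14.9%, 22.7% and 17.5% with overexpression and 73.6%, 84.7% and 79.0% in control cells. SNHG12 had 25.3%, 31.4% and 31.5% with overexpression, against 100% in each control library. In these genes the libraries of the 2 conditions were widely separated. SNHG7 had 5.85%, 7.45% and 0% with overexpression and 74.5%, 69.0% and 68.5% in control cells, and SNHG6 had 71.4%, 44.4% and 29.03% with overexpression and 100%, 86.1% and 85.5% in control cells. The separation was narrower in SNHG5, at 61.7%, 57.3% and 27.8% with overexpression and 90.2%, 61.8% and 65.6% in control cells, and in SNHG1, whose mean was 80.8% ± 4.93 with overexpression and 91.6% ± 3.19 in control cells. An exact two-sided permutation test gave p = 0.1 for each of these 7 genes, the smallest that 3 against 3 libraries can give, and an adjusted p of 0.178 over 16 gene and protein pairs.

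**Figure D3:**
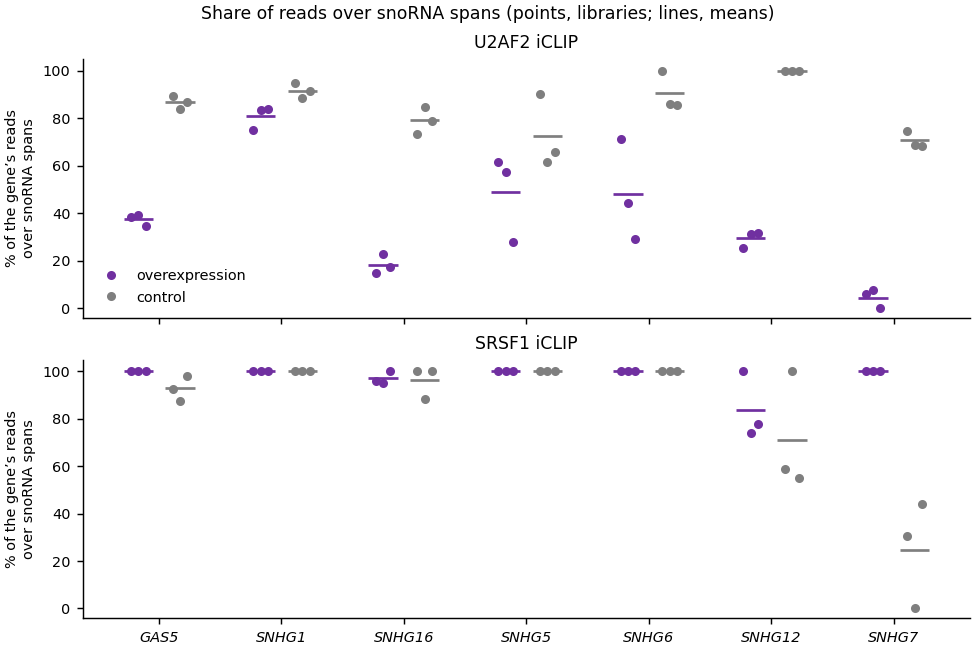
Share of a host gene's reads at sites over snoRNA spans in each U2AF2 library (top) and SRSF1 library (bottom), with overexpression (purple) left of control (grey); points are libraries and lines are means. In U2AF2 libraries SNHG16, SNHG12 and SNHG7 have overexpression means of 18.4%, 29.4% and 4.43%, and in SRSF1 libraries SNHG7 is at 100% with overexpression and at 0% to 44.1% in control cells.

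Site by site, U2AF2 peaks found in every control and no overexpression library lay mostly over snoRNA spans. Peaks found in every overexpression and no control library all lay outside them. Sites with a peak in only some libraries of a condition are not part of these counts. Of 64 sites outside spans with a U2AF2 peak, 16, in 6 genes, had a peak in every overexpression and no control library, and 2 had the reverse. Of 27 sites over spans 0 had a peak in every overexpression and no control library, 6 had the reverse, and 12 had a peak in all 6 libraries. Over all merged sites of the U2AF2 libraries, 12.4% had a peak in every overexpression and no control library and 1.06% had the reverse. The overexpression libraries were the deeper ones, and the part of depth in the 16 and the 6 sites was not tested.

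In GAS5 the site with the most reads (chr1:173834485-173834576), over the entry ENSG00000200729, had 83, 103 and 100 U2AF2 reads with overexpression and 351, 318 and 434 in control cells. A second snoRNA site of GAS5 (chr1:173833487-173833601) had no U2AF2 peak listed under GAS5 with overexpression and 162, 154 and 195 reads in control libraries. The short entry there, ENSG00000202394, had a peak of its own in 1 library, with 4 reads. Only U2AF2 overexpression replicate 3 listed peaks of so few reads. The locus was therefore not without a listed peak in that library, and its snoRNA label rests on that peak alone. Outside the spans, chr1:173834065-173834136 had 39, 43 and 45 reads with overexpression and no peak in control libraries, and chr1:173834186-173834355 had 100, 87 and 114 reads with overexpression and 26, 39 and 41 in control cells. Scaled to depth, the last of these sites had 35.2 ± 3.54 RPM with overexpression and 40.7 ± 7.89 RPM in control cells (SD, n = 3 each), and the ranges overlapped. Other sites outside the spans were lower, as at chr1:173833797-173833853, with 0, 28 and 7 reads with overexpression and 63, 75 and 84 in control cells, and at chr1:173835528-173835571, with 0, 0 and 7 against 35, 49 and 34. Sites outside the spans thus differed among themselves in their listed reads. The part of depth at the site without a control peak was not tested.

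At a pair of snoRNA sites of SNHG1 raw reads were as many or more in the deeper overexpression libraries. The site chr11:62621135-62621196 had 185, 165 and 189 U2AF2 reads with overexpression and 136, 106 and 185 in control cells, and chr11:62620381-62620481 had 73, 69 and 78 with overexpression and 71, 40 and 56 in control cells. Scaled to depth both were lower, with 63.8 ± 10.6 RPM with overexpression and 163 ± 29.2 RPM in control cells at the first and 26.0 ± 4.31 RPM with overexpression and 66.8 ± 29.7 RPM in control cells at the second (SD, n = 3 each). Other snoRNA sites of the gene were also lower in raw reads, as at chr11:62622091-62622156, with no listed peak with overexpression and 132, 125 and 168 reads in control cells, or at chr11:62622762-62622830, with 19, 26 and 14 reads with overexpression and 182, 198 and 249 in control cells. Raw reads of the conditions overlapped at the first pair of sites and did not at the second pair.

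In SNHG16 the site over the SNORD1B entry (chr17:74557203-74557272) had 0, 0 and 8 U2AF2 reads with overexpression and 92, 93 and 119 in control cells. The other snoRNA sites were lower too, with 33, 37 and 38 reads with overexpression and 129, 143 and 205 in control cells at chr17:74554877-74554958. Farther downstream, some sites had a U2AF2 peak in overexpression libraries alone. Of these chr17:74559926-74559999 had 52, 56 and 91 reads, chr17:74560215-74560367 had 50, 36 and 56, and chr17:74560399-74560510 had 96, 91 and 112. Scaled to depth they held 22.8 ± 3.07, 16.5 ± 1.78 and 35.1 ± 4.33 RPM with overexpression (SD, n = 3 each). The control libraries were shallower, and whether depth left these sites without a control peak was not tested. The site between these downstream sites and the snoRNAs (chr17:74559828-74559903) had 25, 18 and 26 reads with overexpression and 113, 60 and 119 in control cells.

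In SNHG7 nearly all overexpression reads lay at 1 site outside the spans (chr9:139619676-139619916), with 161, 143 and 200 reads with overexpression and 13, 0 and 0 in control cells. In SNHG12 the SNORD99 site (chr1:28905254-28905337) had 25, 32 and 45 reads with overexpression and 67, 44 and 85 in control cells. There chr1:28906666-28906831, outside the spans, had 55, 49 and 76 reads with overexpression and no peak in control libraries. The SNORD99 groups overlapped by 1 read in raw counts, and the other SNHG12 site was listed in the overexpression libraries alone among the U2AF2 libraries.

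**Figure D4:**
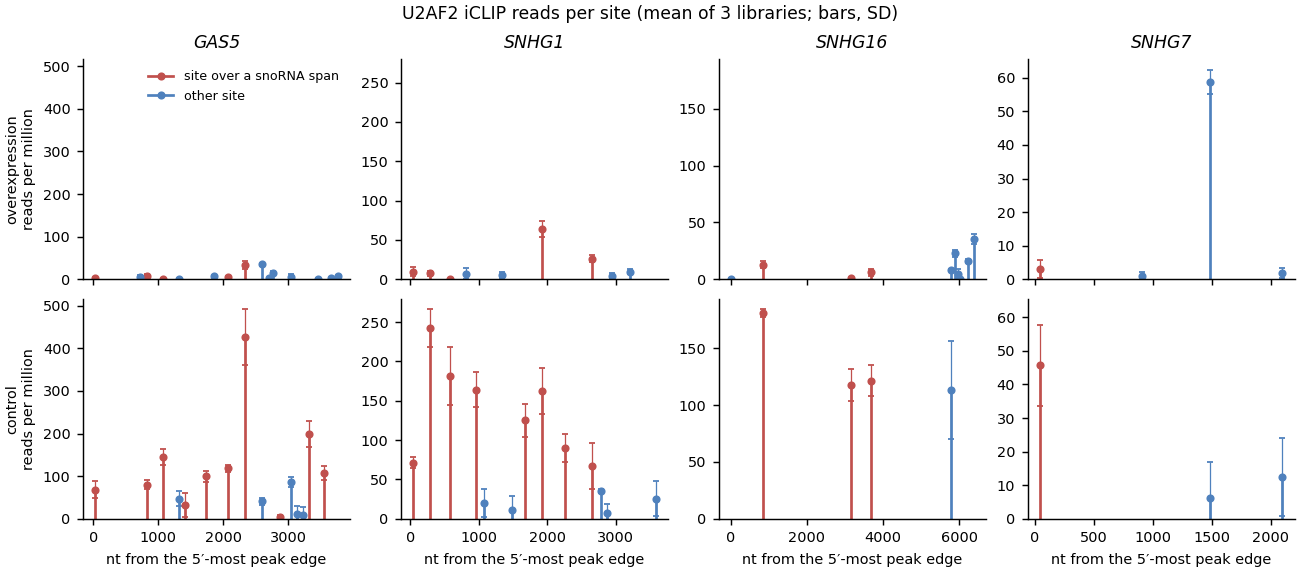
Mean U2AF2 reads, in RPM, at each site of GAS5, SNHG1, SNHG16 and SNHG7, by distance from the 5′-most peak edge of the gene, with overexpression above control on the same scale (bars, SD, n = 3 libraries); red sites are over snoRNA spans. In SNHG16 the 3 red sites are tall in control cells, and blue sites near the far end appear with overexpression; in SNHG7 a single blue site carries the overexpression reads.

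With sites over snoRNA spans removed from every gene, U2AF2 reads of GAS5, SNHG1, SNHG15 and SNHG16 still fell, 4 of 9 tested. SNHG7 and SNHG12 were called higher, with limits given below. Over 12967 genes 15.8% were lower and 27.2% higher in that fit. GAS5 had 87.6, 120.4 and 81.9 normalised reads outside spans with overexpression and 360.4, 496 and 334 in control cells, and fell by 2.03 ± 0.23 (adjusted p = 0.000856). SNHG1 fell by 2.73 ± 0.40 (adjusted p = 0.0028), and SNHG16 by 1.12 ± 0.28 (adjusted p = 0.0214), a call that was lost with total reads as the scale (-0.30, adjusted p = 0.4). The remaining fall of GAS5 and SNHG16 was less steep than that of all their reads, a difference that was not tested.

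SNHG7 had 68.4, 75.4 and 67.9 normalised U2AF2 reads outside spans with overexpression and 37.8, 48.0 and 28.98 in control cells, and rose by 0.89 ± 0.27 (adjusted p = 0.0434). With a peak minimum that grew with depth the difference was 0.29 and did not pass (adjusted p = 0.564). Over all genes in the fit that gave 0.89 the median was 0.76. It was 0.02 over the genes with a peak outside spans in every U2AF2 library. SNHG12 had 74, 70 and 98 reads outside spans with overexpression and no listed peak in control libraries (adjusted p = 0.00021), so no fold is given. SNHG5 (-2.20, adjusted p = 0.0531), SNHG3 (-0.61, adjusted p = 0.227) and SNHG6 (-0.44, adjusted p = 0.824) did not pass.

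In the SRSF1 libraries the hosts took a larger part of the reads, and several were higher with overexpression. The 9 genes held 17742, 14236 and 15662 RPM with overexpression and 10129, 7923 and 14320 in control cells, groups that overlapped. Of 8 genes tested, GAS5, SNHG3 and SNHG12 rose and 0 fell, while 6.38% of 5598 genes were higher and 1.95% lower. GAS5 had 1344, 1257 and 1353 normalised reads with overexpression and 416, 406 and 638 in control cells, and rose by 1.47 ± 0.23 (adjusted p = 0.0256). SNHG3, which shares its peaks with RCC1, had 75.6, 79.4 and 91.8 with overexpression and 15.9, 16.6 and 29.2 in control cells, and rose by 2.00 ± 0.33 (adjusted p = 0.0256). SNHG12 had 155, 154 and 135 with overexpression and 86.1, 53.3 and 76.8 in control cells (1.05 ± 0.25, adjusted p = 0.0487). The groups did not overlap in these 3 genes.

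These SRSF1 calls depended on single libraries. Without control replicate 2, or without overexpression replicate 1, 2 or 3, 0 of the 8 passed, and without control replicate 3 GAS5 alone did. The number of peaks per gene gave 0 calls. SNHG1 (0.58, adjusted p = 0.244), SNHG6 (0.66, adjusted p = 0.159), SNHG7 (0.67, adjusted p = 0.346), SNHG16 (0.26, adjusted p = 0.595) and SNHG5 (-0.74, adjusted p = 0.132) did not pass. SNHG5 had 148, 108 and 118 normalised reads with overexpression and 239, 171 and 219.5 in control cells, so its libraries were lower with overexpression without overlap. SNHG15 had a peak in 1 SRSF1 library and was not tested.

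SRSF1 reads lay almost wholly over snoRNA spans, at 99.5%, 98.1% and 98.8% in overexpression libraries and 94.6%, 93.5% and 96.7% in control libraries. Of 32 sites over spans 22 had a peak in all 6 SRSF1 libraries, 4 had a peak in every overexpression and no control library, and 0 had the reverse, against 2.02% and 1.16% of all merged sites. The SNORA73B entry in SNHG3 lay under a pair of these 4 sites, both without an SRSF1 peak in control libraries. With overexpression chr1:28835231-28835285 had 25, 55 and 58 SRSF1 reads, and chr1:28835149-28835218 had 11, 17 and 29. Another snoRNA site, chr1:28906888-28906956 in SNHG12, had 32, 69 and 51 reads with overexpression and likewise no control peak. Outside the spans GAS5 and SNHG7 were lower, 2 of 4 tested (adjusted p = 0.0271 for both), in a fit in which 2.0% of genes were lower and 6.06% higher. GAS5 had no listed SRSF1 peak outside spans with overexpression, and 33, 30 and 11 reads there in control cells. When peaks had to overlap a short entry in the same library to be removed, the GAS5 difference was 0.27 and did not pass (adjusted p = 0.729).

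hnRNPA1 itself was found on the hosts in both conditions, at summed levels whose ranges overlapped. The 9 genes held 1933 and 2667 RPM with overexpression and 1781 and 2001 in control cells, and the share over spans was 87.1% and 91.3% with overexpression and 87.5% and 91.8% in control cells. Both pairs overlapped. Of 9 genes tested SNHG6 rose, and SNHG7 and SNHG15 were called lower, while 4.31% of 12461 genes were higher and 34.1% lower. The median was 0.54 over the 9 genes and -1.62 over all genes. SNHG6 had 96.8 and 103 normalised reads with overexpression and 42.6 and 47.0 in control cells (1.14 ± 0.19, adjusted p = 0.0247). SNHG7 was listed with no peak in overexpression libraries and with 88 and 52 reads in control libraries (adjusted p = 0.00298), and SNHG15 with none against 14 and 7 (adjusted p = 0.00858). The overexpression libraries were the shallower ones, at 549365 and 575471 reads in peaks. The part of depth in the SNHG7 fall was not tested. SNHG15 stood at 4.71 and 2.79 RPM in control libraries. At that level a library of such depth would hold fewer than 6 reads, so the SNHG15 test cannot tell a fall from no change.

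GAS5 had 994 and 1368 normalised hnRNPA1 reads with overexpression and 761 and 849 in control cells (0.54 ± 0.20, adjusted p = 0.148). SNHG1 (0.59, adjusted p = 0.205), SNHG3 (0.94, adjusted p = 0.146), SNHG5 (0.55, adjusted p = 0.53), SNHG16 (0.04, adjusted p = 0.846) and SNHG12 (-0.13, adjusted p = 0.813) did not pass. Without control replicate 1 or 2, 0 genes passed, and without overexpression replicate 1, 6 passed, with GAS5 (0.84), SNHG1 (0.99), SNHG5 (1.36) and SNHG6 higher. In SNHG16 the SNORD1B site had 24 and 46 hnRNPA1 reads with overexpression and 232 and 178 in control cells, raw values that follow depth. Over spans 18 of 26 sites had a peak in all 4 hnRNPA1 libraries, 3 had one in both control libraries alone and 0 the reverse. Outside the spans 7 of 25 sites had a peak in control libraries alone and 1 in overexpression libraries alone, against 15.5% and 1.53% of all merged sites. GAS5, SNHG12 and SNHG15 had no overexpression peak outside the spans and were lower there, 3 of 6 tested, beside 34.1% lower and 4.28% higher over all genes in that fit. The SNHG15 test has the limit of the peak minimum given above, and the part of depth in the GAS5 and SNHG12 calls was not tested.

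The differences between the responses were tested as interactions of protein and condition. The U2AF2 change was below the SRSF1 change in 7 of 8 genes and above it in 0, against 12.9% below and 4.98% above among 5518 genes. GAS5 differed by -5.73 ± 0.32 (adjusted p = 8.9e-07), SNHG6 by -4.64 ± 0.44 and SNHG1 by -4.57 ± 0.32. SNHG16, SNHG12, SNHG3 and SNHG5 differed by -3.36, -2.79, -2.59 and -2.54, and SNHG7 did not pass (-1.45, adjusted p = 0.0587).

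Against hnRNPA1, the U2AF2 change was lower in 6 of 9 genes and higher in 1, while 11.4% of 11500 genes were lower and 32.7% higher. SNHG6 (-5.12 ± 0.44), GAS5 (-4.80 ± 0.33), SNHG1 (-4.58 ± 0.36), SNHG5 (-3.83), SNHG16 (-3.14) and SNHG12 (-1.60) were lower. SNHG12 missed the threshold without any 1 of the U2AF2 overexpression or hnRNPA1 control libraries. SNHG7 was higher (adjusted p = 0.000598), with a value that rests on hnRNPA1 overexpression libraries without a peak, and SNHG3 (-1.53, adjusted p = 0.0611) and SNHG15 (-1.39, adjusted p = 0.374) did not pass. Both sets of interactions use the same U2AF2 libraries and are not independent.

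Levels across the proteins are shares of each library's own reads in peaks. GAS5 averaged 6528 RPM with SRSF1 and overexpression, 2803 with SRSF1 in control cells, 1473 with U2AF2 in control cells, 917 and 702 with hnRNPA1 in overexpression and control cells, and 135 with U2AF2 and overexpression. No neighbours in this order overlapped. SNHG1 had the same order, at 5097, 4007, 1203, 537, 391 and 133, in which the 2 SRSF1 groups overlapped. SNHG16 had 1736 and 1685 with SRSF1 in overexpression and control cells, which overlapped, then 534 with U2AF2 in control cells, 478 and 526 with hnRNPA1 in overexpression and control cells, of which the control range overlapped with it and with that of overexpression, and 108 with U2AF2 and overexpression. SNHG6 ran from 533 with SRSF1 and overexpression to 9.30 with U2AF2 and overexpression, and SNHG5 from 1211 with SRSF1 in control cells to 29.04 with U2AF2 and overexpression. In SNHG7 and SNHG3 the U2AF2 groups overlapped with each other, at 64.2 and 61.6 with overexpression and 64.4 and 57.5 in control cells.

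Among the genes whose level in the 16 libraries ran most like the mean of the hosts were RPL13A, SNORD10, NOP56 and RPL17-C18orf32, with Pearson r of 0.981, 0.977, 0.974 and 0.974, of 1340 genes with a peak in all 16 libraries. The points share libraries and depth, so this describes the profile and is no test.

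Among 6 other non-coding snoRNA hosts tested, 5 fell in U2AF2 reads and 1 rose, beside 16% lower and 27.5% higher over all genes. EPB41L4A-AS1 (-5.50), SNHG10 (-4.24) and ZFAS1 (-4.18) fell, and DANCR fell to no listed peak with overexpression. With sites over spans removed 0 of 5 fell and 2 rose, beside 15.8% lower and 27.2% higher over all genes. Those that rose were SNHG20 (1.70) and ZFAS1, which had no control peak there. Of 45 protein-coding hosts 39 fell and 0 rose, with a median of -2.77, against 0.76 over all genes and 0.02 over those with a peak in every U2AF2 library. These included the ribosomal protein genes RPL7A (-5.88) and RPS13 (-5.07) and the helicase gene EIF4A2 (-5.67). With sites over spans removed 22 of 45 fell and 4 rose, beside 15.8% lower and 27.2% higher over all genes. EIF4A2 at -5.81 and RPL7A at -3.96 were among those that fell. RPSA and PPAN were among those that rose and had no control peak there.

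Of 14 genes for proteins of the snoRNA particles 5 fell and 2 rose in U2AF2 reads, beside 16% lower and 27.5% higher over all genes, with NOP56, a core C/D box protein that is also a snoRNA host, at -4.56 and the assembly factor NAF1 at -2.64. RUVBL2 and SNU13 had no control peak. Of 13 nonsense-mediated decay genes 5 fell and 0 rose, with UPF3A at -1.87 and UPF2 at -1.34 among those that fell. Of 8 genes for snoRNA processing and intron debranching EXOSC10, an exosome nuclease, fell by 2.39, and the debranching enzyme DBR1 (0.88) and EXOSC3 (0.55) rose, 1 and 2 of 8, near the shares over all genes. In SRSF1 reads 9 of 45 protein-coding hosts rose and 0 fell, with RPSA at 2.11, RPL13A at 2.07 and RPS12 at 1.82, and ZFAS1 rose by 1.73, 1 of 6 other non-coding hosts. Over all genes 6.38% were higher and 1.95% lower in that SRSF1 fit. With sites over spans removed 1 of 36 protein-coding hosts rose and 5 fell in SRSF1 reads, beside 6.06% higher and 2.0% lower over all genes; RPSA, which fell there, had no overexpression peak. Of the particle proteins 3 of 7 rose, NOP58 (1.66) and NOP56 (1.04) among them, while NOP56 fell by 1.39 (adjusted p = 0.0480) with sites over spans removed, and 1 of 9 decay genes and 1 of 5 processing genes rose. In hnRNPA1 reads 4.31% of all genes were higher and 34.1% lower. Among 45 protein-coding hosts 2 rose in these reads (EIF4G2, 0.96, and NCL, 0.93) and 2 fell (RPL27A, -2.43, and RPL5, -1.15). There 1 of 6 other non-coding hosts rose (ZFAS1, 1.36) and 2 fell, 2 of 8 processing genes rose (MTREX, 1.33, and XRN2, 0.81), and 0 of 14 particle protein genes and 0 of 12 decay genes passed in the limma fit.

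The polyadenylated RNA-seq was available as the authors' deposited table of 251 skipped-exon events, which holds 2 overlapping events of the host genes, both in SNHG5 (chr6:86387142-86387906). By its name the table keeps events above a minimum inclusion difference and a minimum Bayes factor, so it does not list all measured exons. Hosts without an event were thus not shown to be unchanged, and the SNHG5 events were selected for a difference. In the authors' deposited table the inclusion of the first was 0.93 and 0.98 in overexpression samples and 0.62 and 0.95 in control samples. The overexpression samples lay above control replicate 1 and on both sides of control replicate 2. As the authors' deposited table gives it, control minus overexpression was -0.31 and -0.36 for the pairs with control replicate 1, with Bayes factors of 11.1 and 45.2, and 0.02 and -0.03 for those with control replicate 2, with Bayes factors of 0.13 and 0.08. The second event in the authors' deposited table had inclusion of 0.93 and 0.98 with overexpression and 0.64 and 0.94 in control samples. The difference therefore rests on control replicate 1.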

How the data were processed

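The deposited iCLIP files list CLIPper peaks called per library on hg19, per the file headers; TopHat and Bowtie2 are named in the submitters' processing notes without versions. Reads per peak were taken from the last field of the deposited peak name, after the gene ID and a running number. The authors' MISO table gives exon inclusion as a fraction, a Bayes factor as a ratio, and a score that is control minus overexpression inclusion, per the file headers.

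Versions were stripped from gene IDs, and 17914 of 19362 matched a name table. Reads in peaks were summed per gene and library, with 0 for no peak, divided by median-of-ratios size factors, and fitted as log2(value + 1) with limma 3.58.1 (eBayes with trend) in R 4.3.3. Only genes with a peak in at least 50% of a protein's libraries were fitted, and two-sided p-values were adjusted by Benjamini-Hochberg over all of them, with calls at 0.05. Sites were merged over the 16 libraries where peaks overlapped by at least 1 nt on the same strand. Short entries were 199 IDs annotated as snoRNA or scaRNA and 697 IDs in no name table whose peaks stayed within 300 nt. Members, lists and tests were chosen with earlier results of these data known; the site definition was added after the files were seen. All 10 members are named, and from each list up to 4 called genes with the largest change; some genes are not reported here. GRCh38 sequences come from GENCODE v29, and no coordinates were converted. Python 3.11.15, pandas 2.3.3, numpy 2.4.6 and scipy 1.17.1 were used.

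The fit was tested on simulated data. Without a minimum hardly any unchanged gene was called. With one, unchanged genes of few reads were called for U2AF2 and hnRNPA1, whose conditions differ in depth. The simulated minimum was put on the total of a gene, while the real one acts on each peak. The simulation therefore cannot show what the minimum does to genes whose reads are spread over many small peaks. Replicate libraries shared at most 0.0659% of the smaller library's peaks and each was counted as a sample; nothing says that they came from separate cultures, so p-values measure the spread between these libraries. Counting error was not modelled, and reads were not independent molecules.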

Additional observations from a re-analysis of the deposited data

Results flagged for a closer look

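The U2AF2 change differed from the SRSF1 change by the interaction test in GAS5 (-5.73), SNHG6 (-4.64), SNHG1 (-4.57), SNHG16 (-3.36), SNHG12 (-2.79), SNHG3 (-2.59) and SNHG5 (-2.54), on the log2 scale. The same test set the U2AF2 change against the hnRNPA1 change and found differences of -5.12 in SNHG6, -4.80 in GAS5, -4.58 in SNHG1, -3.83 in SNHG5, -3.14 in SNHG16, -1.60 in SNHG12 and 4.11 in SNHG7. The last value depends on the pseudocount, since SNHG7 had no hnRNPA1 peak with overexpression. Groups had 2 or 3 libraries, so no library was examined as an outlier.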

How the results depend on the processing

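Peaks of at least 6 reads and unequal depth limit what low genes can show. Removing intervals listed exactly under a snoRNA gene took no read from the host genes. The 8, 3 and 3 calls left for U2AF2, SRSF1 and hnRNPA1 are therefore no check of the calls. The number of peaks per gene gave 3, 0 and 1 calls, and 2 and 3 calls for U2AF2 minus SRSF1 and U2AF2 minus hnRNPA1. SRSF1 had 1 call with no filter, and hnRNPA1 had 0 after quantile normalization and 0 with a peak in every library. Outside spans U2AF2 had 5 calls with a peak in every library and 5 with total reads as the scale. SRSF1 had 0 outside spans defined in the same library, and 2, both lower, with spans over all libraries, peak by peak, and with total reads, 6 reads or a depth-growing minimum; with a peak in every library no member was left to test. hnRNPA1 had 1 call outside spans of the same library and 0 outside spans with a peak in every library. The share over spans was 0% for identical intervals, 66.5% in the same library, 85.6% over all libraries and 84.7% peak by peak. Its U2AF2 difference was -41.9 points in the same library, -52.3 peak by peak, -36.7 with peaks in place of reads and -42.8 with a depth-growing minimum; for SRSF1 it was 13.7 and 10.2, and for hnRNPA1 -19.4 and 3.17, in the same library and with peaks. Single genes changed sign as follows. With peaks in place of reads these were SNHG12 in U2AF2 (0.070) and in U2AF2 minus hnRNPA1 (0.45), SNHG3 in U2AF2 (0.16), and in SRSF1 SNHG7 (-0.052) and SNHG16 (-0.25). With total reads they were SNHG7 (0.023) and SNHG3 (0.20, also outside spans) in U2AF2, SNHG6 outside spans in U2AF2 (0.17), SNHG12 outside spans in SRSF1 (-0.23) and SNHG16 in hnRNPA1 (-0.13). Outside same-library spans they were GAS5 in SRSF1 (0.27) and hnRNPA1 (0.95) and SNHG6 in U2AF2 (0.058). After quantile normalization they were SNHG16 in SRSF1 (-0.16) and in hnRNPA1 SNHG15 (0.58), SNHG12 (0.40) and SNHG16 (-0.23). With a depth-growing minimum they were SNHG12 outside spans in SRSF1 (-0.034), and in hnRNPA1 SNHG16 (-0.76; outside spans -0.15), GAS5 (-0.29), SNHG1 (-0.21) and SNHG5 (-0.27). Of the other alternatives for single genes 677 kept direction and call, 73 lost the call and 21 gained it. The causes were not tested.

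Leaving out 1 library turned the sign in hnRNPA1 for SNHG5 (-0.16 to 1.36), SNHG12 (-0.54 to 0.37) and SNHG16 (-0.13 to 0.17). It gave 6 to 8 calls for U2AF2, 0 to 3 for SRSF1, 0 to 6 for hnRNPA1 (6 without overexpression replicate 1, 4 higher and 2 lower), 7 to 8 for U2AF2 minus SRSF1 and 5 to 8 for U2AF2 minus hnRNPA1. The share difference ranged from -50.8 to -46.6 points for U2AF2, 3.17 to 4.76 for SRSF1 and -2.62 to 1.68 for hnRNPA1.

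Replicate numbers did not pair the libraries (correlations of same-numbered libraries -0.0135 to 0.0220). A replicate block gave 6 calls for U2AF2, 0 for SRSF1, 2 for hnRNPA1, 7 for U2AF2 minus SRSF1 and 6 for U2AF2 minus hnRNPA1.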
